A study of Arabidopsis thaliana with 12 samples.

Results

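The comparison described here follows the apical lineage of the Arabidopsis thaliana proembryo, from the apical cell (AC) of the 1-cell embryo to the embryo proper of the 32-cell embryo (32E). The libraries were chosen by the sample titles and comprise 3 libraries of 32E and 3 of AC, 6 of the 12 libraries of the series. The other 6 were made from the suspensor (32S) and the basal cell (BC) of the same stages. They enter the fit and are set beside the apical values where the lineages are compared. All embryos came from Col plants crossed to Col and grown at 22 °C in long days. None carried a mutation or transgene, and no treatment was compared. The seeds were kept in a solution of cellulase and macerozyme and washed, and embryos were then taken from them by hand. The lineages were separated with a laser microdissection system and collected by micromanipulation. Each library is an independent sample amplified from very little mRNA with a SMART-Seq kit. By the paper's methods, each sample pooled a number of apical or basal cells, or their descendants, so an AC library is not a single cell. A difference between 32E and AC is one of age, of cell number and of cell types at once. In each embryo 32E holds many cells of several types, and AC is a single cell. The part that unequal starting mRNA had in the results was not tested. The source labels give each 32E library a slightly different cell number, and they name 2 kits for making the libraries without saying which was used for which. The paper's methods describe no split of the samples by kit. There, cDNA was amplified with a SMARTer kit and libraries were then prepared with a NEBNext kit.

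The apical cell arises from the asymmetric division of the zygote and gives rise to almost the whole embryo, while its sister, the basal cell, forms the suspensor and a part of the root pole. The descendants of the apical cell divide in a fixed pattern until an outer layer, the protoderm, encloses inner cells that found the vascular and ground tissue. Auxin is carried between these cells by efflux carriers and read by response factors such as MONOPTEROS (MP), and this pathway is required for the axis and the root pole of the embryo. Protoderm identity is set by homeodomain factors of the HD-ZIP IV class, ATML1 and PDF2 among them, which bind an element called the L1 box in the promoters of epidermal genes.

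Values are FPKM, read fragments scaled by transcript length and library size, as the authors computed them. FPKM do not share a common total. Over all genes they summed to 884376 to 894576 in the 32E libraries and 837110 to 853363 in the AC libraries. The values were compared on the log2(FPKM + 1) scale with limma, a linear model with a spread shared across genes. The fit covered the 17060 of 32399 genes above FPKM 1 in at least 3 of the 12 libraries. A gene was called where the Benjamini-Hochberg adjusted p was under 0.01 and the log2 fold change, 32E minus AC, was at least 1 in size. All fold changes below are on this scale, which understates the change of genes with low values, and all adjusted p are from limma. The p-values measure the spread between libraries of a group, pooled over all 4 groups. The spread of the 32S and BC libraries therefore enters the p-values of 32E against AC. A gene listed at 0 in every library of a group is given no fold change, and it enters the median of a list at its fitted value, which depends on the pseudocount. With genes at 0 in any of the 6 libraries left out of the fit, 1049 genes were called higher in 32E and 2018 lower. In whole-tissue RNA of this kind, a change in the share of cells that express a gene and a change in the RNA per cell cannot be told apart.

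The files hold no read counts per gene, so the reads behind a value of 0 are unknown. In the study's library statistics, AC replicates 1 and 2 had more read pairs than any 32E library. AC replicate 3 had the fewest of the 6. Between 17594 and 19114 genes were above 0 in the 32E libraries, against 14392 to 16171 in the AC libraries, and the lower end was AC replicate 3. The share that fewer detected genes in AC had in the gains below was not tested. Across genes, Pearson's r of the log2 values was 0.972 to 0.978 within 32E and 0.950 to 0.974 within AC, against 0.780 to 0.826 between 32E and AC libraries. These describe genes, which are not independent replicates. Replicate 2 of 32E stood apart by genes of low level that the other libraries had at 0. Of 48 photosynthesis genes it had 1 at 0, against 22 and 15 in 32E replicates 1 and 3 and 20 to 29 in AC, and of 18 aquaporin genes none, against 6 and 7 in those replicates and 7 to 11 in AC. The count of genes called higher in 32E was 1848 without it, against 2231 with it. Marker sums were low for endosperm, with 11 genes together at 0.06 to 0.51 FPKM in 32E and 2.5 to 6.82 in AC. Of these, 10 did not pass the filter on low values and FWA was lower in 32E. The 9 seed coat markers summed to 34.5 to 46.1 FPKM in 32E, against 8.84 to 15.4 in AC. Almost all of that was MUM4, a mucilage enzyme gene, and STK, an ovule identity gene, both called higher in 32E (STK not without AC replicate 1 or 3, adjusted p = 0.011 and 0.0119), while the pigment regulators TT2 and TT8 were at 0 in all 6 libraries. The part of these cell types in the results below was not tested.

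The apical labels were set against 6 genes of the apical lineage and 5 of the basal lineage. WOX2, HAN, DRN, LEC1 and ATML1, all transcription factor genes of the apical cell and its descendants, were present in every library of both groups and none was called. The sixth, MP, was called higher in 32E. WOX2 (AT5G59340) was at 121, 116.97 and 126 FPKM in 32E and 104, 126 and 109.8 in AC, with overlapping libraries. WOX8 (AT5G45980), the homeobox gene that marks the basal lineage, was listed at 0 in 32E and at 8.99, 7.02 and 9.35 in AC, and it averaged 429 in 32S and 350.0 in BC. Its close relative WOX9 (AT2G33880) went the other way. It was at 96.2, 75.9 and 105 FPKM in 32E and 1.43, 0.04 and 0.14 in AC (log2 fold change 6.02, SE 0.28, adjusted p = 2.02e-08), and at 292 and 633 on average in 32S and BC. Of the 5 basal markers 1 was higher and 3 were lower in 32E, and through WOX9 their sum was 109 to 136 FPKM in 32E, against 48.1 to 63.8 in AC.

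Of the 17060 genes tested, 2231 (13.1%) were higher in 32E than in AC and 2448 (14.3%) were lower, 27.4% in either direction. The median log2 fold change was -0.01. These shares are the background against which the counts of each gene list below are read. A list that held a like share would not stand out from all genes.

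**Figure D1:**
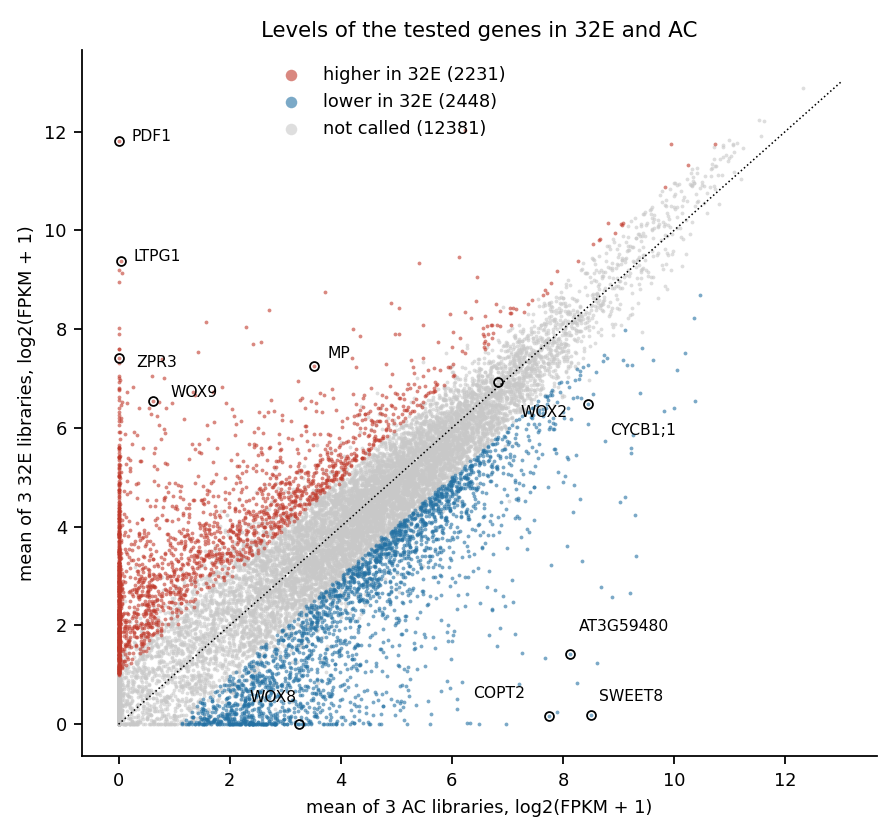
Mean level of each of the 17060 tested genes in 32E (vertical axis) and AC (horizontal axis), both as log2(FPKM + 1) over 3 libraries, with genes called higher in 32E in red (2231), genes called lower in blue (2448) and the others in grey. Red points stand in a column at 0 in AC, with PDF1 and ZPR3 among them, and WOX2 lies near the dotted line of equal level.

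A gene was counted as gained where it was at FPKM 0.5 or less in all AC libraries and above 5 in all 32E libraries, and as lost where the reverse held. By this rule 270 genes were gained and 93 lost, among 11258 genes above FPKM 5 in every 32E library and 10904 in every AC library, of which 9607 were above it in all 6. The rule reads the same values as the test, so that 269 of the 270 and all 93 were also called, and no test is given for them. Of the gained genes, 190 were at 0 in all AC libraries. Their median level in 32E was 14.9 FPKM. In the basal lineage 83 of them were above FPKM 5 in all 32S libraries, 39 were so in all BC libraries, and 83 were at FPKM 0.5 or less in all 6. Of the lost genes, 29 were above FPKM 5 in all 32S libraries, 40 in all BC libraries, and 18 were at FPKM 0.5 or less in all 6. The counts move with the rule, to 162 and 76 genes at limits of FPKM 10 and 1, and without AC replicate 1 the gained genes were 407.

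**Figure D2:**
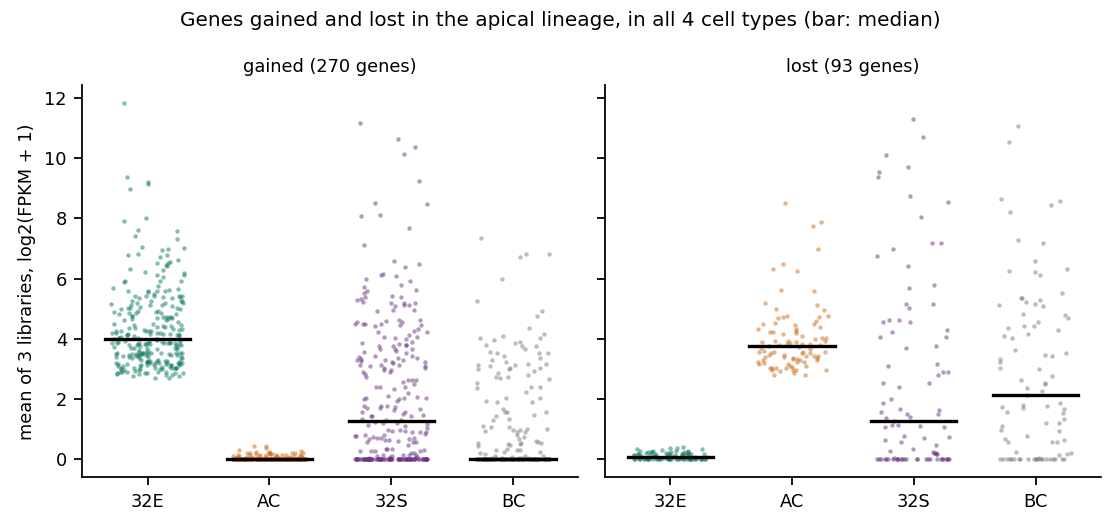
Mean level, as log2(FPKM + 1) over 3 libraries, of the 270 genes gained (left) and the 93 genes lost (right) between AC and 32E, shown in 32E, AC, 32S and BC, with a bar at the median. By the rule, gained genes lie near 0 in AC and lost genes near 0 in 32E, while both sets spread from 0 to above 10 in 32S.

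Among the gained genes with the highest levels, PDF1 (AT2G42840), a small secreted protein of the protoderm, was first, with 3514, 4033 and 3297 FPKM in 32E, and was listed at 0 in every AC library (adjusted p = 7.73e-09). AT1G71691, annotated as a GDSL-type lipase, was at 406, 782 and 578 FPKM in 32E and likewise at 0 in AC (adjusted p = 4.37e-10). AT4G29020, a glycine-rich protein gene, was at 514, 524 and 453 FPKM in 32E, at 0 in AC (adjusted p = 7.58e-10) and at 0.223 on average in 32S. The lipase gene was at 589 FPKM on average in 32E and 2297 in 32S. AT4G29020 was thus near 0 in the suspensor, where the lipase gene was not. ADS1 (AT1G06080), an acyl desaturase, was at 231, 259.8 and 220.1 FPKM in 32E and listed at 0 in AC (adjusted p = 2.41e-07).

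Transporters and enzymes were among the lost genes with the highest levels in AC. SWEET8 (AT5G40260), a sugar efflux carrier, was at 0.29, 0 and 0.14 FPKM in 32E and 312, 421 and 348 in AC (log2 fold change -8.30, SE 0.25, adjusted p = 9.39e-10). GAD (AT5G17330), a glutamate decarboxylase, was at 0, 0.03 and 0 FPKM in 32E and 115, 110.4 and 151 in AC (log2 fold change -6.95, SE 0.15, adjusted p = 6.94e-11). AT2G28680, annotated as a cupin, was at 0.28, 0 and 0.28 FPKM in 32E and 219.5, 282 and 207 in AC (log2 fold change -7.64, SE 0.16, adjusted p = 6.94e-11). All 3 were at or near 0 in every 32E library and present in both cell types of the basal lineage, where the cupin gene averaged 1108 FPKM in 32S and 1491 in BC. By contrast, the lost gene PEPC1 (AT1G17710), a phosphatase, was at 0 on average in 32S and 3.4 FPKM in BC, with 0.07, 0 and 0 in 32E and 62.2, 83.0 and 82.8 in AC (log2 fold change -6.22, SE 0.72, adjusted p = 2.61e-05). RNS1 (AT2G02990), a secreted ribonuclease, was at 0.42, 3.47 and 0.7 FPKM in 32E and 231, 199.7 and 182 in AC (log2 fold change -6.53, SE 0.39, adjusted p = 1.62e-07), and was not among the lost genes because 32E replicates 2 and 3 were above FPKM 0.5.

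Regulators were frequent among the gains. Transcription factor genes, as listed in the study's table, which had itself been filtered on these samples, made up 45 of the 270 gained genes (16.7%), against 4.64% of all genes above FPKM 5 in 32E. They made up 6 of the 93 lost genes (6.45%), against 4.24% of all genes above FPKM 5 in AC. Over the 902 transcription factor genes tested, 214 (23.7%) were higher in 32E and 136 (15.1%) lower. Of 30 families with at least 10 genes tested, those with the largest share of higher calls were ARF (8 of 15), Dof (9 of 18), AP2 (6 of 13) and HD-ZIP (11 of 24), the last also with 7 lower. NF-YB had none called in either direction of 10, and NF-YC had 1 higher and 3 lower of 12. Among the Dof genes, whose products bind DNA through a single zinc finger, AT5G02460 was at 50.3, 49.2 and 79.0 FPKM in 32E and 0, 0.04 and 0 in AC (log2 fold change 5.87, SE 0.20, adjusted p = 2.06e-09). The HD-ZIP factor HB6 (AT2G22430) was at 14.1, 18.3 and 13.7 FPKM in 32E and 0, 0.15 and 0 in AC (log2 fold change 3.95, SE 0.16, adjusted p = 7.04e-09). MYB94 (AT3G47600), an activator of wax synthesis in leaves, was at 88.7, 60.3 and 80.8 FPKM in 32E and 1.47, 0 and 0 in AC (log2 fold change 5.83, SE 0.35, adjusted p = 1.75e-07). In the other direction, NF-YC7 (AT5G50470), a histone-fold subunit of CCAAT-binding complexes, was at 4.15, 1.03 and 0.51 FPKM in 32E and 48.6, 49.1 and 54.7 in AC (log2 fold change -4.37, SE 0.40, adjusted p = 4.74e-06). RKD3 (AT5G66990), an RWP-RK factor of the egg cell group, was at 134, 92.0 and 86.0 in 32E and 744, 586 and 680.5 in AC (log2 fold change -2.70, SE 0.17, adjusted p = 2.68e-07). The libraries of the groups did not overlap for any of these genes, and RKD3 was among the most abundant regulators that fell.

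Genes that found the meristems and divide the embryo into regions were mostly higher in 32E. Of 29 genes listed, 20 passed the filter. Of these, 11 were higher in 32E, 8 had no call and 1 was lower, and the median log2 fold change was 1.42. The root meristem factor PLT1 (AT3G20840) and its relatives AIL5 and AIL6, all of the AP2 class, were near 0 in AC. PLT1 was at 95.1, 102 and 116.61 FPKM in 32E and 1.13, 3.44 and 0 in AC (log2 fold change 5.63, SE 0.40, adjusted p = 5.61e-07). AIL5 (AT5G57390) was at 39.0, 45.3 and 40.6 in 32E and AIL6 (AT5G10510) at 12.5, 24.6 and 25.01, and both were listed at 0 in AC (adjusted p = 3.46e-09 and 1.27e-07). BBM (AT5G17430), another AP2 gene of the same group, was high at both stages and the only lower call of the list. It was at 109, 118 and 129.7 FPKM in 32E and 241, 229 and 259 in AC (log2 fold change -1.03, SE 0.10, adjusted p = 1.01e-05), with no overlap between the groups, and its fold change was just under the threshold without 32E replicate 1 (-0.97) or AC replicate 3 (-0.98).

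The shoot genes of the same list were low. WUS (AT2G17950), which keeps shoot stem cells, was at 9.97, 10.2 and 5.54 FPKM in 32E and at 0 in AC (adjusted p = 1.75e-07). CUC2 (AT5G53950) and CUC3 (AT1G76420), NAC factors of the boundary between cotyledons, varied between 32E libraries. CUC2 was at 12.02, 33.8 and 39.2 FPKM in 32E and at 0 in AC (adjusted p = 5.67e-07), and CUC3 was at 2.70, 13.7 and 15.9 in 32E and 0.24, 0 and 0 in AC (log2 fold change 3.18, SE 0.44, adjusted p = 0.000106). All 3 were at 0 on average in 32S and BC. Library 1 of 32E was the lowest for both CUC genes. STM, CLV3 and KNAT1, later genes of the shoot meristem, did not pass the filter. DRN and HAN, which pattern the early embryo, were present in AC and were not called, with DRN (AT1G12980) at 100.5, 64.4 and 55.6 FPKM in 32E and 60.3, 35.5 and 22.9 in AC. Without AC replicate 1 DRN was called higher (log2 fold change 1.29).

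Leaf polarity and organ growth had the highest median of the lists in the main fit, with 15 of 20 tested genes higher, none lower and a median log2 fold change of 3.08. A further 14 of its 34 genes did not pass the filter. Without the filter its median was 1.81 over 28 genes, below the 2.32 over 18 genes of the inner-tissue list described below. Without AC replicate 1 its median was 2.99, and that of the inner-tissue list was 3.23. In leaves, HD-ZIP III factors mark the upper side, KANADI, YABBY and the auxin response factors ETT and ARF4 the lower side, and small ZPR proteins bind HD-ZIP III factors. ZPR3 (AT3G52770) was at 183, 155 and 171 FPKM in 32E and ZPR4 (AT2G36307) at 133, 56.3 and 71.4, while AC had 0 in all libraries for ZPR3 and 0, 0.1 and 0 for ZPR4 (adjusted p = 7.56e-11 and 1.04e-08). The HD-ZIP III genes were present at low levels in AC. The HD-ZIP III gene PHB (AT2G34710) was at 72.6, 82.0 and 96.5 FPKM in 32E and 6.58, 11.4 and 9.66 in AC (log2 fold change 3.07, SE 0.27, adjusted p = 2.78e-06), and REV (AT5G60690) at 46.8, 36.5 and 48.0 in 32E and 8.81, 5.89 and 10.3 in AC (log2 fold change 2.28, SE 0.24, adjusted p = 1.23e-05).

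On the opposing side, ETT (AT2G33860) was at 72.7, 84.0 and 111 FPKM in 32E and 2.26, 2.65 and 3.49 in AC (log2 fold change 4.56, SE 0.27, adjusted p = 1.66e-07), the highest of the lower-side genes. KAN1 (AT5G16560) was at 4.26, 9.50 and 12.1 and KAN2 (AT1G32240) at 5.91, 9.33 and 7.89 in 32E, against 0 in all AC libraries for KAN1 and 0.03, 0 and 0 for KAN2 (adjusted p = 3.74e-06 and 3.18e-07). Both KAN genes lay well below ETT in every 32E library. Growth regulators were higher too. AN3 (AT5G28640), a coactivator of cell proliferation in leaves, was at 49.8, 105 and 81.2 FPKM in 32E and at 0 in AC (adjusted p = 3.56e-08). Its partner GRF1 (AT2G22840) was at 23.4, 30.2 and 31.4 FPKM in 32E and at 0 in AC (adjusted p = 4.05e-06). GRF3 (AT2G36400) was at 41.1, 49.6 and 60.1 in 32E and 1.47, 1.2 and 1.83 in AC (log2 fold change 4.35, SE 0.20, adjusted p = 2.05e-08). No member of the list was called lower, and AS1 (AT2G37630), a MYB factor of the leaf, was not called, at 7.80, 11.2 and 13.4 FPKM in 32E and 4.78, 7.32 and 6.23 in AC.

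**Figure D3:**
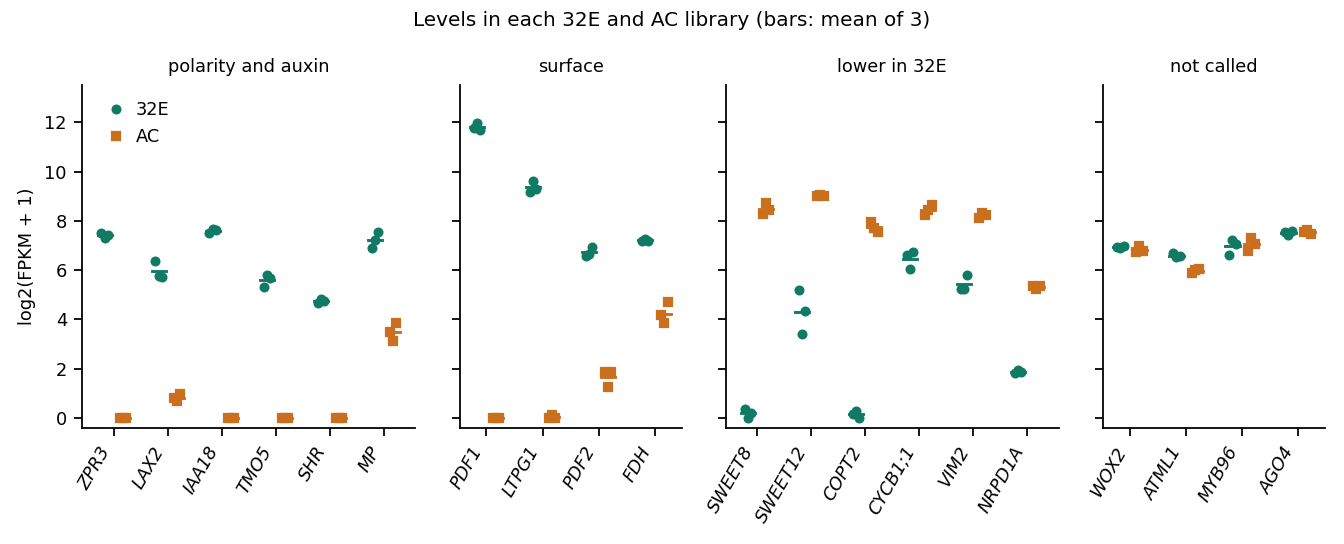
Level of 20 list members in each of the 3 32E libraries (circles) and 3 AC libraries (squares), as log2(FPKM + 1), with a bar at each mean. ZPR3, IAA18, TMO5, SHR and PDF1 lie at 0 in all AC libraries, SWEET8 and COPT2 near 0 in 32E, and WOX2, MYB96 and AGO4 overlap between the groups.

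The identity genes of the protoderm divided into 3 higher, 3 lower and 6 not called of 12 tested, with a median of -0.07. PDF2 (AT4G04890) was at 93.7, 100.2 and 121 FPKM in 32E and 2.69, 1.42 and 2.64 in AC (log2 fold change 5.05, SE 0.18, adjusted p = 3.36e-09), whereas its near duplicate ATML1 (AT4G21750) was at 102, 91.1 and 93.1 in 32E and already at 58.7, 63.4 and 64.8 in AC (adjusted p = 0.0389, not called). The pair was of like level in 32E, while in AC every library had more ATML1 than PDF2. ACR4 (AT3G59420), a receptor kinase of the epidermis, was at 6.23, 6.63 and 8.09 FPKM in 32E and 0.85, 0.08 and 0.04 in AC (log2 fold change 2.64, SE 0.45, adjusted p = 0.000511). The 3 genes called lower are of the same HD-ZIP IV class as PDF2. ANL2 (AT4G00730) was at 1.80, 5.10 and 4.04 FPKM in 32E and 16.5, 12.8 and 13.8 in AC (log2 fold change -1.79, SE 0.30, adjusted p = 0.000395), and HDG1 (AT3G61150) at 0.17, 0.08 and 0.76 in 32E and 3.04, 3.75 and 5.22 in AC (log2 fold change -1.92, SE 0.21, adjusted p = 1.56e-05). HDG11 (AT1G73360) was at 9.57, 17.3 and 14.9 in 32E and 33.9, 26.0 and 36.1 in AC (log2 fold change -1.17, SE 0.19, adjusted p = 0.000358), and without 32E replicate 1 its fold change was -0.94 and it was not called.

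Genes that build the cuticle, the lipid layer that seals the epidermis, were higher in 11 of 23 tested, with 1 lower (CER2) and a median of 0.80. LTPG1 (AT1G27950), which carries lipids to the surface, was the highest, at 581, 775 and 632 FPKM in 32E and 0, 0.08 and 0 in AC (log2 fold change 9.33, SE 0.32, adjusted p = 2.47e-09). DCR (AT5G23940), an acyltransferase of cutin synthesis, was at 149.5, 271 and 196 FPKM in 32E and 3.97, 4.62 and 4.40 in AC (log2 fold change 5.24, SE 0.38, adjusted p = 6.67e-07). LACS2 (AT1G49430), which activates the fatty acids of cutin, was at 54.1, 82.5 and 82.5 in 32E and at 0 in AC (adjusted p = 1.67e-08), and CUT1 (AT1G68530), which elongates wax precursors, at 8.08, 18.4 and 9.78 and at 0 in AC (adjusted p = 1.65e-06). For each of these genes all 32E libraries were above all AC libraries. The wax regulators MYB96 and MYB30 were not called. MYB30 (AT3G28910) was at 180.0, 164 and 204 FPKM in 32E and 304, 311 and 290.3 in AC, below every AC library but by less than the threshold of size (log2 fold change -0.73). FDH (AT2G26250), an enzyme of very long fatty acids in the epidermis, was at 146, 155 and 145 FPKM in 32E and 16.9, 13.4 and 24.7 in AC (log2 fold change 2.99, SE 0.27, adjusted p = 3.74e-06).

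An L1 box, searched as TAAATGCA or TAAATGTA on both strands in the 250 bases before the annotated start, was found for 3 of 15 protoderm genes (20%) and 3 of 32 cuticle genes (9.38%), against 4.51% of all 26711 promoters. Of the protoderm genes, it was found for 0 of 3 called higher and 1 of 3 called lower. Of the cuticle genes, it was found for 1 of 11 called higher and not for the 1 called lower. The only called genes with a box were thus FDH, higher in 32E, and ANL2, lower in 32E, both within the last 100 bases. With 1 gene in each direction, no direction can be read from the match. They are shown for that contrast, in the genome build TAIR10.1 of RefSeq, 5′ to 3′ on the gene's own strand, with the box in capitals. FDH lies on the minus strand at chr2:11173279-11173378 and ANL2 on the minus strand at chr4:304613-304712.
FDH: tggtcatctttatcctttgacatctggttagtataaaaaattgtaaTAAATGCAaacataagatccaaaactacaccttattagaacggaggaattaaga
ANL2: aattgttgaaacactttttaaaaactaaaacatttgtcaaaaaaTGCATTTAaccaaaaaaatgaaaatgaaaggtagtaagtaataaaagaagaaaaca

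Auxin genes were higher in 18 of 41 tested and lower in 6, with a median of 0.97. Among them were carriers and enzymes that place the hormone. LAX2 (AT2G21050), an influx carrier of vascular cells, was at 81.9, 53.7 and 51.7 FPKM in 32E and 0.74, 0.6 and 0.96 in AC (log2 fold change 5.14, SE 0.31, adjusted p = 1.73e-07). Its relative LAX1 (AT5G01240) was present at both stages, at 84.2, 77.4 and 70.7 in 32E and 46.3, 47.9 and 51.2 in AC, and was not called. TAA1 (AT1G70560), which makes the precursor of auxin from tryptophan, was at 38.3, 35.95 and 34.98 FPKM in 32E and 0, 1.66 and 0 in AC (log2 fold change 4.75, SE 0.32, adjusted p = 3.51e-07). PIN7 (AT1G23080), an efflux carrier of the suspensor, was called higher from a low level, at 0.81, 4.70 and 1.98 FPKM in 32E and at 0 in AC (adjusted p = 0.00239), and it was at 109 on average in 32S.

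On the response side, Aux/IAA genes, most of which encode repressors that auxin removes, moved in both directions. IAA18 (AT1G51950) was at 179.7, 204 and 195 FPKM in 32E and at 0 in AC (adjusted p = 6.94e-11), and it was also at 0 in 32S. IAA13 (AT2G33310) was at 34.6, 42.6 and 48.5 FPKM in 32E and 0, 0.04 and 0 in AC (log2 fold change 5.39, SE 0.19, adjusted p = 2.76e-09). IAA33 (AT5G57420) was the reverse, at 0 in every library of 32E and at 8.72, 6.93 and 10.8 FPKM in AC (adjusted p = 2.95e-08). ARF17 (AT1G77850), a response factor that lacks the domain bound by Aux/IAA proteins, was lower, at 7.04, 3.51 and 3.43 FPKM in 32E and 36.2, 29.5 and 45.0 in AC (log2 fold change -2.78, SE 0.25, adjusted p = 3.21e-06), while ARF2 (AT5G62000), a repressor, was not called, at 92.0, 97.9 and 90.7 in 32E and 121, 105 and 110.1 in AC. MP (AT1G19850), the response factor of the embryo axis, was at 118, 148 and 186 FPKM in 32E and 10.3, 7.66 and 13.47 in AC (log2 fold change 3.73, SE 0.21, adjusted p = 1.07e-07).

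The genes that MP is known to switch on and other founders of inner tissues were higher in 12 of 15 tested, with 1 lower and a median of 2.51. The lower one, SCL23, was not called when 32E replicate 1 or 3 or AC replicate 1 or 3 was left out. TMO5 (AT3G25710), a bHLH factor of vascular divisions, was at 38.4, 54.6 and 49.9 FPKM in 32E, and TMO6 (AT5G60200), a Dof factor, at 11.5, 18.7 and 19.6. AC had 0 in all libraries for TMO5 and 0.04, 0.08 and 0 for TMO6 (adjusted p = 9.23e-10 and 2.58e-08). LOG4 (AT3G53450), a cytokinin enzyme gene downstream of TMO5, was at 35.9, 24.0 and 28.4 FPKM in 32E and at 0 in AC (adjusted p = 7.58e-05). SHR (AT4G37650), a GRAS factor made in the vascular cells that moves into the ground tissue, was at 24.2, 27.0 and 25.7 in 32E and at 0 in AC (adjusted p = 7.75e-10). Its partner SCR (AT3G54220) was present at both stages, at 37.9, 43.7 and 37.4 FPKM in 32E and 41.5, 25.04 and 29.7 in AC, with overlapping libraries and no call. All these gained genes except LOG4 averaged 0 in 32S and BC.

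Cytokinin genes followed, with 11 of 18 tested higher, 1 lower and a median of 1.67. The receptor gene WOL (AT2G01830) was at 11.0, 15.4 and 19.8 FPKM in 32E and 2.56, 1.44 and 2.33 in AC (log2 fold change 2.38, SE 0.26, adjusted p = 1.52e-05). The type-A response regulators, which cytokinin induces and which damp its signal, did not move together. RR5 (AT3G48100) was at 26.8, 18.6 and 10.6 FPKM in 32E and ARR7 (AT1G19050) at 17.3, 10.2 and 17.1, and both were at 0 in AC (adjusted p = 2.99e-07 and 9.63e-08). By contrast, ARR15 (AT1G74890) was at 13.8, 16.0 and 13.8 in 32E and 163, 154 and 173 in AC (log2 fold change -3.40, SE 0.20, adjusted p = 1.66e-07). CKX6 (AT3G63440), an oxidase that degrades the hormone, was at 13.1, 14.8 and 11.8 FPKM in 32E and at 0 in AC (adjusted p = 2.14e-08). ARR4 (AT1G10470), another type-A gene, was at 46.1, 53.0 and 32.04 in 32E and 22.9, 18.3 and 23.4 in AC, above every AC library. It met neither threshold and was not called. Its fold change was under the threshold of size, and its adjusted p was 0.278, in which the spread of 32S and BC is pooled.

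Of the 11 gibberellin genes tested, 3 were higher and 1 lower. Without 32E replicate 2 or AC replicate 3 there were 2 higher, and without 32E replicate 3 there were 2 lower. Genes of the enzymes that inactivate gibberellin differed in direction. GA2OX2 (AT1G30040) was at 4.22, 7.69 and 5.78 FPKM in 32E and at 0 in AC (adjusted p = 2.29e-07), and GA2OX6 (AT1G02400) at 0, 0.24 and 0.53 in 32E and 9.30, 16.5 and 12.5 in AC (log2 fold change -3.44, SE 0.52, adjusted p = 0.000218). For brassinosteroids, DWF4 (AT3G50660), the rate-limiting enzyme of synthesis, was at 114, 121 and 139 FPKM in 32E and 0.03, 0.03 and 0 in AC (log2 fold change 6.94, SE 0.36, adjusted p = 5.48e-08). The receptor gene BRI1 (AT4G39400) was at 4.80, 6.75 and 6.31 in 32E and at 0 in AC (adjusted p = 1.22e-07).

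BRI1 belonged to a list of 18 receptor kinases and members of the YODA cascade, of which 9 were higher, 1 was lower and the median was 1.45. The ERECTA family, which acts in organ growth, was represented by 3 genes, all higher. ERL1 (AT5G62230) was at 74.4, 84.5 and 80.4 FPKM in 32E and 9.15, 3.18 and 5.59 in AC (log2 fold change 3.62, SE 0.28, adjusted p = 1.19e-06), and ERL2 (AT5G07180) at 80.2, 88.7 and 97.7 in 32E and 27.9, 14.6 and 12.9 in AC (log2 fold change 2.28, SE 0.34, adjusted p = 0.000192). YDA (AT1G63700), the kinase that promotes elongation of the zygote and suspensor fate, was the single member lower in 32E, at 17.5, 18.6 and 20.9 FPKM, against 41.9, 37.7 and 50.1 in AC (log2 fold change -1.14, SE 0.18, adjusted p = 0.000239). The kinases at the end of that cascade, MPK6 (AT2G43790) and MPK3, were not called, with MPK6 averaging 49.5 FPKM in 32E and 68.1 in AC.

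Cell cycle genes split by phase. Of 33 genes of DNA replication, 10 were higher in 32E, 2 were lower, and 28 had a fold change above 0, with a median of 0.67. Of 41 genes of mitosis, 2 were higher, 16 were lower, and 6 had a fold change above 0, with a median of -0.97. The background medians and shares were -0.01, 13.1% higher and 14.3% lower. All genes of both lists passed the filter.

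**Figure D4:**
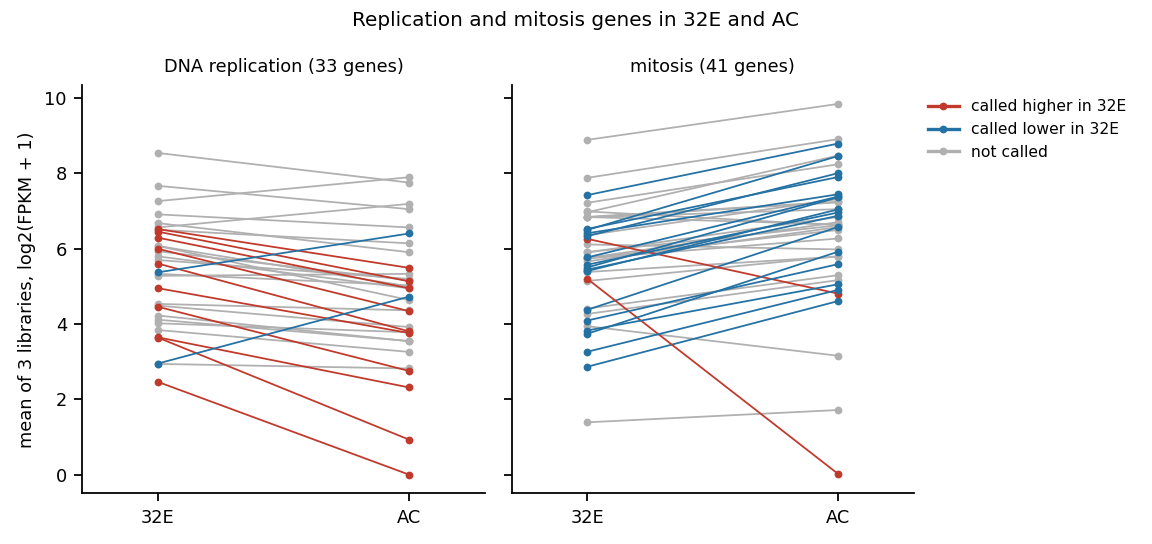
Mean level of each gene of the DNA replication list (left, 33 genes) and the mitosis list (right, 41 genes) in 32E and AC, as log2(FPKM + 1) over 3 libraries, with lines joining the values of a gene. Red lines (called higher in 32E) are 10 of 33 on the left and 2 of 41 on the right, and blue lines (called lower) are 2 and 16.

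The replication genes that were higher included several that act at the start of S phase. CDC45 (AT3G25100), a part of the active helicase, was at 10.5, 13.6 and 10.3 FPKM in 32E and 2.71, 0 and 0 in AC (log2 fold change 3.0, SE 0.45, adjusted p = 0.000187). CDT1A (AT2G31270), which loads the helicase onto origins, was at 46.8, 49.4 and 46.6 in 32E and 9.40, 17.3 and 12.1 in AC (log2 fold change 1.84, SE 0.20, adjusted p = 1.45e-05), and MCM4 (AT2G16440), a subunit of that helicase, at 76.5, 52.8 and 59.1 in 32E and 17.9, 22.9 and 16.8 in AC (log2 fold change 1.65, SE 0.25, adjusted p = 0.000192). Of the 6 genes for the helicase ring, MCM2 to MCM7, 4 were called higher and MCM6 and MCM7 were not, and MCM5 was not called without 32E replicate 1 (log2 fold change 0.85) or AC replicate 3 (0.94). ORC1A (AT4G14700), an origin-binding subunit, was at 3.91, 5.57 and 4.06 FPKM in 32E and at 0 in AC (adjusted p = 2.1e-07). FAS1 (AT1G65470), which places histones on new DNA, was at 22.02, 18.1 and 22.7 in 32E and 4.97, 6.94 and 5.29 in AC (log2 fold change 1.71, SE 0.22, adjusted p = 5.81e-05). PCNA1 (AT1G07370), the sliding clamp, did not pass the threshold of size, at 465, 325 and 321 FPKM in 32E and 221, 225 and 196 in AC (log2 fold change 0.77). The reads of PCNA1 and its near copy PCNA2 may have been shared out between them. Of the 2 lower calls, that of CDT1B was lost when any 1 library was left out. E2FB (AT5G22220), an activator of the cycle, was at 6.01, 5.50 and 8.67 in 32E and 26.0, 17.5 and 32.9 in AC (log2 fold change -1.75, SE 0.35, adjusted p = 0.00156).

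The B-type cyclins, which drive entry into mitosis, led the lower calls. Of the 9 in the list 7 were called lower, and CYCB1;3 and CYCB1;4 were not called, with log2 fold changes of -1.52 and -0.99. Without 32E replicate 2 or AC replicate 3, 1 of the 7 calls was lost (adjusted p = 0.0109 and 0.0106). CYCB1;1 (AT4G37490) was at 96.2, 64.3 and 107 FPKM in 32E and 299, 348 and 404 in AC (log2 fold change -1.99, SE 0.19, adjusted p = 7.18e-06), and CYCB2;2 (AT4G35620) at 12.7, 15.8 and 30.6 in 32E and 85.4, 75.8 and 122 in AC (log2 fold change -2.27, SE 0.31, adjusted p = 0.000103). MYB3R-4 (AT5G11510), the activator of genes expressed before mitosis, was at 11.7, 11.0 and 14.3 in 32E and 49.9, 72.2 and 56.5 in AC (log2 fold change -2.17, SE 0.18, adjusted p = 1.77e-06). The groups did not overlap for these 3 genes. The A-type cyclins CYCA2;3 (AT1G15570) and CYCA2;4 were the 2 genes called higher, with CYCA2;3 at 34.5, 33.7 and 39.2 FPKM in 32E and 0, 0.03 and 0 in AC (log2 fold change 5.18, SE 0.22, adjusted p = 9.73e-09). KN (AT1G08560), the syntaxin of the cell plate, was at 104, 92.4 and 144 in 32E and 147, 139 and 165 in AC, with overlapping libraries and no call.

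The promoters of both lists were searched for the short motifs that known regulators of these phases bind. An E2F site, searched as TTTCCCGC, TTTGGCGC, TTTGCCGC or TTTCGCGC on both strands in 250 bases, was present for 12 of 33 replication genes (36.4%), 7 of the 10 called higher (70.0%) and none of the 2 called lower, against 1.41% of all 26711 promoters. The core of the mitosis-specific activator element, which MYB3R factors bind, was searched as AACGG on both strands and was present for 24 of 41 mitosis genes (58.5%), 12 of the 16 called lower (75.0%) and none of the 2 called higher, against 20.6% of all promoters. None of the E2F forms holds the core or its reverse. Over all tested genes, by contrast, genes called higher held an E2F site in 1.79% and genes called lower the AACGG core in 24.1%, close to the 1.62% and 23.0% of all tested genes. A match is a description of letters, not of a bound site.

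The last 100 bases before the start are given for 3 genes of each kind, chosen among the named genes with a match there, so that the position of the motif can be read beside the values above. They are from TAIR10.1, 5′ to 3′ on the gene's strand, with matches in capitals, and a match on the other strand reads as GCGGGAAA, GCGCCAAA or CCGTT. Of the replication genes, ORC1A is on the plus strand at chr4:8422073-8422172, FAS1 on the minus strand at chr1:24324092-24324191 and MCM4 on the minus strand at chr2:7130730-7130829. Of the mitosis genes, CYCB1;1 is on the minus strand at chr4:17624309-17624408, CYCB2;1 on the plus strand at chr2:7663955-7664054 and CYCB2;3 on the minus strand at chr1:7137829-7137928.
ORC1A: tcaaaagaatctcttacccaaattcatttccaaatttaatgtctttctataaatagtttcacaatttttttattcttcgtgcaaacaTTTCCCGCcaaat
FAS1: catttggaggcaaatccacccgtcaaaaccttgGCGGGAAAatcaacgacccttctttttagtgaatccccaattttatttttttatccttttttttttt
MCM4: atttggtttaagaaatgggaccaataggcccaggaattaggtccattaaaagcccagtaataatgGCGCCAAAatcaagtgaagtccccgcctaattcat
CYCB1;1: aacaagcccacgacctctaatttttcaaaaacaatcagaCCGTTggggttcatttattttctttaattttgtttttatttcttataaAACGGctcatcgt
CYCB2;1: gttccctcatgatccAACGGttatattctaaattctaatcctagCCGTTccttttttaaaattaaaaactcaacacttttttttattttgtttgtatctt
CYCB2;3: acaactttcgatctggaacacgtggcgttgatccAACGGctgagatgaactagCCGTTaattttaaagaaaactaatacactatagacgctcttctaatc

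CYCB2;1 (AT2G17620) was at 6.29, 4.38 and 8.15 FPKM in 32E and 19.8, 22.7 and 27.7 in AC (log2 fold change -1.77, SE 0.22, adjusted p = 5.21e-05), and CYCB2;3 (AT1G20610) at 48.3, 38.7 and 45.4 in 32E and 140.0, 189.5 and 161 in AC (log2 fold change -1.86, SE 0.14, adjusted p = 8.7e-07). All 3 cyclin promoters shown hold the core in both orientations within the 100 bases.

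Regulators of entry into the cycle, D-type cyclins and inhibitors, showed 4 higher and 2 lower of 21. The lower call of FZR2 was lost without 32E replicate 1 or 2 or AC replicate 1 or 3 (adjusted p 0.0148 to 0.0236), which left 1 lower, and the higher call of KRP3 was lost without 32E replicate 1 or AC replicate 2 (adjusted p 0.0127 and 0.0105). CYCD3;1 (AT4G34160), which responds to cytokinin and sucrose, was at 55.2, 70.4 and 53.4 FPKM in 32E and 4.13, 2.64 and 6.50 in AC (log2 fold change 3.54, SE 0.28, adjusted p = 1.26e-06). CYCD3;2 (AT5G67260) was high at both stages, at 416, 416 and 410.0 in 32E and 224, 207 and 167 in AC (log2 fold change 1.06, SE 0.15, adjusted p = 0.000135), and without AC replicate 3 its fold change was 0.94 and it was not called. The inhibitor KRP7 (AT1G49620) was at 2.34, 2.2 and 4.01 in 32E and 16.7, 12.1 and 18.9 in AC (log2 fold change -2.14, SE 0.31, adjusted p = 0.000143). Core histone genes were higher in 7 of 22 tested and lower in none, with a median of 0.82, led by the H2B gene HTB9 (AT3G45980), at 362, 358 and 409.9 FPKM in 32E and 87.8, 90.6 and 78.3 in AC (log2 fold change 2.13, SE 0.12, adjusted p = 1.05e-07). Histone genes are near-identical copies among which reads may have been divided, so their single values are uncertain.

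Among genes of DNA methylation, 3 of 24 were higher and 6 lower, with a median of -0.50. The lower ones included genes of both ways of placing the mark. For maintenance after replication, VIM2 (AT1G66050), which helps the methyltransferase MET1 find its sites, was at 36.6, 36.9 and 55.0 FPKM in 32E and 276, 323 and 299 in AC (log2 fold change -2.80, SE 0.32, adjusted p = 2.18e-05), while VIM1 (AT1G57820) stayed above it, at 217, 193 and 200.3 in 32E and 272, 268 and 280.3 in AC, and was not called. The VIM genes are close copies of each other. For methylation guided by small RNA, NRPD1A (AT1G63020), the large subunit of RNA polymerase IV, was at 2.53, 2.82 and 2.61 FPKM in 32E and 40.2, 37.1 and 40.3 in AC (log2 fold change -3.46, SE 0.14, adjusted p = 9.2e-09), and the methyltransferase DRM1 (AT5G15380) at 7.55, 12.7 and 8.57 in 32E and 41.1, 49.6 and 43.6 in AC (log2 fold change -2.13, SE 0.27, adjusted p = 6e-05). The effector AGO4 (AT2G27040) was not called, with overlapping libraries at 185, 173 and 189 FPKM in 32E and 186, 198 and 177 in AC. One gene of the same pathway, chr31 (AT1G05490), a chromatin remodeller, was higher from a low level, at 1.51, 3.11 and 2.47 in 32E and 0.08, 0.07 and 0.16 in AC (log2 fold change 1.58, SE 0.19, adjusted p = 3.88e-05).

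In the pathways of other small RNAs, 3 of 12 genes were higher and none lower, while their sum was 532 to 542 FPKM in 32E and 782 to 849.6 in AC. AGO1 was called lower without 32E replicate 2 (log2 fold change -1.01) or AC replicate 1 (-1.02). AGO10 (AT5G43810), which sequesters the microRNAs that target HD-ZIP III transcripts, was at 75.8, 78.2 and 77.6 FPKM in 32E and 30.6, 31.4 and 38.0 in AC (log2 fold change 1.2, SE 0.14, adjusted p = 2.6e-05). SPL10 (AT1G27370), a factor gene repressed by a microRNA in early embryos, was at 3.71, 3.28 and 3.73 in 32E and at 0 in AC (adjusted p = 2.05e-06). Of 7 Polycomb genes tested, which silence developmental genes, none was called, and FIE (AT3G20740) was at 57.5, 54.1 and 45.9 FPKM in 32E and 56.4, 53.1 and 49.8 in AC.

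Functions with lower calls included transport. Of 13 tested genes that carry sugars and amino acids, 7 were lower, 2 were higher and the median was -1.59. The sugar efflux carriers SWEET8, SWEET12 and SWEET15 were all lower. SWEET12 (AT5G23660) was at 36.00, 9.53 and 19.3 FPKM in 32E and 517, 524 and 513 in AC (log2 fold change -4.70, SE 0.32, adjusted p = 4.59e-07), and SWEET15 (AT5G13170) was at 0 in all 32E libraries and at 32.5, 27.3 and 47.5 in AC (adjusted p = 5.27e-09). STP1 (AT1G11260), which takes up hexoses, was also lower, at 11.6, 9.77 and 7.23 FPKM in 32E and 59.8, 85.3 and 70.3 in AC (log2 fold change -2.80, SE 0.30, adjusted p = 1.36e-05). The importers AAP1 (AT1G58360), for amino acids, and SUC2 (AT1G22710), for sucrose, were the higher ones. AAP1 was at 10.9, 46.4 and 18.3 FPKM in 32E and 2.56, 0 and 0 in AC (log2 fold change 3.86, SE 0.52, adjusted p = 8.18e-05), and SUC2 at 9.12, 6.13 and 2.74 in 32E and at 0 in AC (adjusted p = 0.000238).

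Of 11 tested genes of copper and related metals, 4 were lower and none higher, and all 4 move or reduce metals at membranes. COPT2 (AT3G46900), which imports copper, was at 0.13, 0.23 and 0 FPKM in 32E and 246, 208 and 185 in AC (log2 fold change -7.57, SE 0.14, adjusted p = 5.08e-11). The metal carrier YSL2 (AT5G24380) was at 5.21, 4.75 and 6.99 FPKM in 32E and 35.2, 34.0 and 40.4 in AC (log2 fold change -2.51, SE 0.14, adjusted p = 8.56e-08). FRO3 (AT1G23020), a metal reductase, was at 0.18, 0 and 0 in 32E and 9.59, 27.6 and 10.6 in AC (log2 fold change -3.85, SE 0.65, adjusted p = 0.000481). The copper enzymes CSD1 and CSD2 were not called, and CSD2 (AT2G28190) was at 189, 209 and 209 FPKM in 32E and 128, 111 and 134 in AC.

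Lipid breakdown was lower as well, in 8 of 18 genes, with 1 higher and a median of -0.88. The 8 span the pathway of β-oxidation and the glyoxylate cycle. LACS7 (AT5G27600), which activates fatty acids in the peroxisome, was at 4.77, 3.23 and 1.1 FPKM in 32E and 28.3, 22.8 and 40.0 in AC (log2 fold change -3.04, SE 0.33, adjusted p = 1.64e-05). The oxidase ACX3 (AT1G06290) was at 4.87, 7.72 and 7.37 FPKM in 32E and 25.4, 26.4 and 19.4 in AC (log2 fold change -1.70, SE 0.18, adjusted p = 1.34e-05), and MFP2 (AT3G06860), of the next step, at 16.3, 13.8 and 14.4 in 32E and 45.0, 54.1 and 59.1 in AC (log2 fold change -1.76, SE 0.13, adjusted p = 9.84e-07). MLS (AT5G03860), the malate synthase, was at 0 in 32E and at 4.59, 3.16 and 5.18 in AC (adjusted p = 3.15e-06). PCK1 (AT4G37870), which starts the making of sugar from the products, was the exception, at 15.6, 34.7 and 25.2 FPKM in 32E and 0.27, 0.19 and 0 in AC (log2 fold change 4.44, SE 0.26, adjusted p = 1.48e-07). Fatty acid synthesis, in contrast, had 1 higher and 1 lower of 26 and a median of 0.01, with the carrier protein gene ACP3 (AT1G54630) at 436, 381 and 426 in 32E and 377, 301 and 356 in AC. The lower gene of that list was FAD3 (AT2G29980), the desaturase that makes linolenic acid, at 0.67, 1.68 and 1.59 FPKM in 32E and 17.9, 14.3 and 22.6 in AC (log2 fold change -3.07, SE 0.26, adjusted p = 2.14e-06).

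Of 5 tested genes of the egg cell and zygote, 2 were lower and none was higher. Without AC replicate 3 there were 3 lower. EC1.5 (AT5G64720), a secreted peptide of the egg cell, was at 3.02, 0.87 and 1.72 FPKM in 32E and 22.3, 31.2 and 21.5 in AC (log2 fold change -3.23, SE 0.29, adjusted p = 4.11e-06), and RKD2 (AT1G74480), a factor of egg cell identity, at 8.37, 16.5 and 7.05 in 32E and 48.7, 46.4 and 58.1 in AC (log2 fold change -2.24, SE 0.27, adjusted p = 3.79e-05). Of 12 tested genes of seed maturation, 2 were higher and 2 lower, and without AC replicate 1 there were 3 higher. OLEO1 (AT4G25140), an oil body protein, was at 0, 1.78 and 1.98 in 32E and 16.0, 15.3 and 21.6 in AC (log2 fold change -3.19, SE 0.36, adjusted p = 2.09e-05). The higher ones were regulators of maturation. ABI3 (AT3G24650) was at 13.8, 20.9 and 24.3 FPKM in 32E and FUS3 (AT3G26790) at 3.5, 13.2 and 5.76, both at 0 in AC (adjusted p = 2.82e-08 and 3.03e-05), while LEC1 (AT1G21970) was at 308, 303 and 331 in 32E and 629, 614 and 566 in AC, below every AC library but by less than the threshold of size (log2 fold change -0.94).

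Genes of cell expansion were mixed. Of 19 wall genes, 6 were higher and 4 lower. EXPA15 (AT2G03090), an expansin that loosens walls, was at 417, 322 and 556 FPKM in 32E and 10.2, 19.6 and 6.36 in AC (log2 fold change 5.14, SE 0.35, adjusted p = 3.69e-07), and the wall-remodelling enzyme gene XTH9 (AT4G03210) at 337, 419.8 and 341 in 32E and 31.1, 22.6 and 33.1 in AC (log2 fold change 3.63, SE 0.18, adjusted p = 4.2e-08). The lower ones were EXPA14 and the cellulose synthase genes CESA2, CESA3 and CESA6, of which CESA2 was not called without 32E replicate 1 (log2 fold change -0.98) nor CESA6 without 32E replicate 1 or 3 or AC replicate 2 or 3, and without 32E replicate 1 the lower ones were 2. CESA3 (AT5G05170) was at 12.9, 16.6 and 17.42 FPKM in 32E and 55.7, 66.6 and 65.4 in AC (log2 fold change -1.94, SE 0.20, adjusted p = 1.14e-05). Of 9 aquaporin genes tested, which encode water channels, 4 were higher and 2 lower, and their 18 listed genes summed to 1111 to 1479 FPKM in 32E, against 148 to 184 in AC. PIP1;4 (AT4G00430) was at 77.3, 106 and 66.0 FPKM in 32E and 1.37, 0 and 0 in AC (log2 fold change 5.95, SE 0.32, adjusted p = 8.09e-08), and PIP1C (AT1G01620) at 340.1, 383 and 302 in 32E and 26.4, 37.9 and 31.5 in AC (log2 fold change 3.39, SE 0.31, adjusted p = 4.66e-06). The calls of PIP3 and PIP1B were lost when any 1 library was left out (adjusted p 0.0102 to 0.034), so that 2 were then higher, and these close copies may share reads. The lower call of RD28 was lost without any 1 library other than 32E replicate 2 (adjusted p 0.0103 to 0.0327), which left 1 lower.

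Photosynthesis genes were low in both groups. Of 48 listed, 31 passed the filter, of which 8 were higher, 3 lower and 20 not called. Without 32E replicate 2, which had more of these genes above 0 than any other library, 6 were higher, 5 lower, and the median was 0.00 in place of 0.75. Without AC replicate 3, 5 were higher. In a fit of the 6 apical libraries alone, with a pseudocount of 5, or without genes at 0 in any of them, 2 were higher in each case. PETC (AT4G03280), the Rieske protein of the electron transport chain, was at 7.05, 11.6 and 6.03 FPKM in 32E and 1.52, 0.12 and 0 in AC (log2 fold change 2.66, SE 0.34, adjusted p = 5.47e-05). HEMA1 (AT1G58290), the first enzyme of chlorophyll synthesis, was at 11.0, 15.7 and 12.1 in 32E and 2.33, 4.64 and 0 in AC (log2 fold change 2.37, SE 0.48, adjusted p = 0.00151). LHCB6 (AT1G15820), an antenna protein, was not called, with 10.5, 18.4 and 16.1 in 32E and 14.7, 13.8 and 14.1 in AC. The 48 genes summed to 90.9, 344 and 120.4 FPKM in 32E replicates 1, 2 and 3, against 110.5, 104 and 120.0 in AC replicates 1, 2 and 3, so that replicate 2 alone stood clearly above the AC libraries.

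Several groups held few calls. Of 17 genes of the cytoskeleton, 2 were lower and none higher. None of 14 nucleolar genes was called, with FIB1 (AT5G52470), the fibrillarin of ribosome assembly, at 1180.4, 1157 and 1247 FPKM in 32E and 797, 844 and 749 in AC. None of 14 heat shock genes was called, but their sum was 6165, 4282 and 1277 FPKM in 32E replicates 1, 2 and 3, against 4364 to 4554 in AC, and 32E replicate 3 was far below the others. Of 18 genes of wounding, touch and jasmonate, 2 were higher and none lower, with a median of 0.52, and several were lowest in 32E replicate 1. Without that library 6 were higher and the median was 1.39, without 32E replicate 3 there was 1 higher and 1 lower, and without 32E replicate 2 or AC replicate 1 or 3 there was 1 higher. MYC2 (AT1G32640), the main factor of jasmonate response, was at 5.81, 32.9 and 46.8 FPKM in 32E and 2.61, 3.89 and 0 in AC (log2 fold change 3.1, SE 0.76, adjusted p = 0.00514), and the call was lost without 32E replicate 2 or 3 or AC replicate 1 or 3 (adjusted p 0.0101 to 0.0263). Of 12 clock genes, 2 were lower, ELF4 and the glycine-rich RNA-binding protein gene GR-RBP8 (AT4G39260), which was at 32.2, 32.6 and 32.8 FPKM in 32E and 147, 154 and 164 in AC (log2 fold change -2.22, SE 0.12, adjusted p = 6.9e-08). Without 32E replicate 3 or AC replicate 1 or 2, 1 clock gene was called higher. Of 10 housekeeping genes, UBQ10 alone was called, as lower, and not without 32E replicate 3 or AC replicate 3 (adjusted p = 0.0129 and 0.0111).

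**Figure D5:**
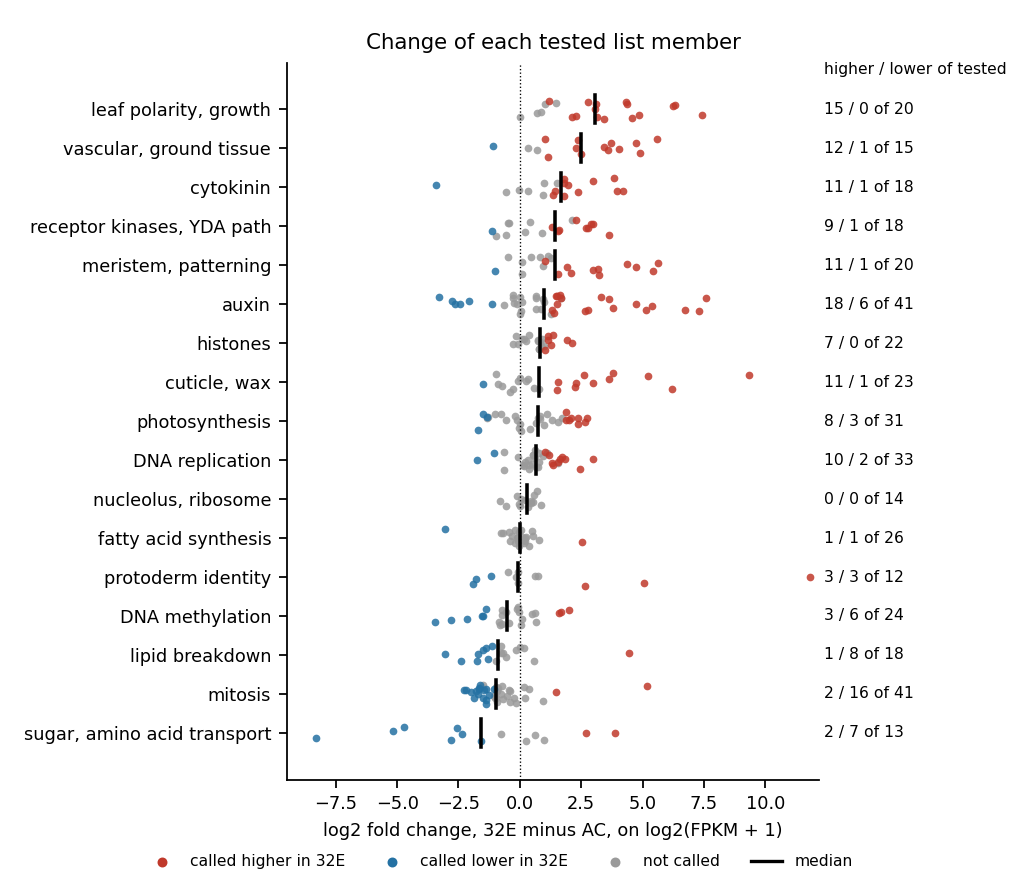
Log2 fold change, 32E minus AC on log2(FPKM + 1), of every tested member of 17 gene lists, ordered by their median (black bar), with called genes in red (higher in 32E) and blue (lower in 32E), and the counts of higher and lower calls at the right. Medians run from -1.59 for sugar and amino acid transport to 3.08 for leaf polarity and growth, and genes at 0 in 1 group are included at their fitted value, which depends on the pseudocount.

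The change from AC to 32E was set against the change from BC to 32S in the same model. The difference was called for 9016 of the 17060 genes (52.8%), in 4609 (27.0%) with the more positive change in the apical lineage and in 4407 (25.8%) with the more negative. Of the 41 mitosis genes, 32 had the more positive change in the apical lineage and 2 the more negative, and of the 33 replication genes 28 and 2. The median change of the mitosis genes was -0.97 from AC to 32E and -3.39 from BC to 32S, and that of the replication genes 0.67 from AC to 32E and -1.43 from BC to 32S. Nucleolar genes were alike in this, with 13 of 14 more positive and none more negative. Leaf polarity genes were more positive in 14 of 20 and more negative in 2.

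The cuticle and lipid genes went the other way. Of 23 cuticle genes 4 were more positive and 9 more negative, and the median change was 0.80 from AC to 32E and 2.29 from BC to 32S. The difference for LTPG1 was not called, at 1.02 (SE 0.46, adjusted p = 0.0668). That for FDH was -4.48 (SE 0.38, adjusted p = 1.2e-06), with 219 FPKM on average in 32S and 0.177 in BC. Of the 18 genes of lipid breakdown, 13 were more negative in the apical lineage and 1 more positive, and the median change was -0.88 from AC to 32E and 0.69 from BC to 32S. For SWEET12 the difference was -7.41 (SE 0.46, adjusted p = 1.03e-07), with 3078 FPKM on average in 32S and 467 in BC. ZPR3 and IAA18 averaged at most 0.01 FPKM in both 32S and BC, and of the 4 cell types only 32E had them above that level.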

How the data were processed

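RNA was amplified from 12 samples of proembryo cells separated by laser microdissection, and the deposited tables give 1 FPKM per gene for 32399 genes in each library, to 2 decimals. FPKM were computed by the authors from reads aligned to the TAIR10 genome, and the submitters' processing notes name TopHat2 2.1.1 and RSEM. The files hold no counts, so neither a count test nor an interval for depth was possible, and an exact 0 may lie below the depth of its library.

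Groups were taken from the sample titles. FPKM were transformed as log2(FPKM + 1) and fitted with limma 3.58.1 (R 4.3.3, trended empirical Bayes, 4 group means, 8 residual degrees of freedom) over genes above FPKM 1 in at least 3 libraries. A call required a log2 fold change of 1 or more in either direction and a p under 0.01 after Benjamini-Hochberg adjustment. The contrasts were 32E minus AC, and that change minus the change 32S minus BC. The procedure was tested on simulated data. Tables and plots were made in python 3.11.15 with pandas 2.3.3, numpy 2.4.6 and matplotlib 3.10.9.

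The 35 gene lists (733 entries), markers and motifs were chosen with earlier results of these data known. The lists are described by counts and medians beside those of all tested genes. Named genes were the 20 with the largest fold change in each direction among called genes without overlap, up to 6 called and 2 uncalled genes of each list, 2 called genes of each transcription factor family with 10 or more genes tested, the 5 highest gained and lost genes, and the markers, 315 in all. BBM, YDA, ARF17, IAA33, PHB, REV, PIN7, CESA2, CESA3, CESA6, KN, MPK3, CER2, CSD1, CYCA2;4, CDT1B, SCL23, CYCB1;3, CYCB1;4 and the MCM genes other than MCM4 were named after their values were seen. Transcription factor families came from a table of the study that had been filtered on these samples.

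Of the 32399 identifiers, 31912 matched the RefSeq annotation of TAIR10.1, from which symbols, products and promoters (250 bases before the annotated start, both strands searched) were read. Alternatives were other pseudocounts, filters and scalings, other limits for gained and lost genes, a fit of the 6 apical libraries, a replicate block, and leaving out each of these libraries.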

Additional observations from a re-analysis of the deposited data

Results flagged for a closer look

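Of the 40 genes with the largest changes between 32E and AC, 20 in each direction, 36 had a change that differed from that between 32S and BC by the same limma test and thresholds, against 52.8% of all genes tested. The genes were picked by 1 of the changes that enter this difference, so the count is a description. For 6 of the 40 the difference was called and the changes ran in opposite directions, with a change between 32S and BC of at least 1 in size. Where a group is at 0 the size of the difference depends on the pseudocount.

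COPT2, the copper importer, was at 0.12 FPKM on average in 32E and 213 in AC, while it was at 367 in 32S and 154 in BC. The difference between the changes was -8.83 (SE 0.20, adjusted p = 2.45e-10). GAD, the glutamate decarboxylase, was at 0.01 in 32E and 125 in AC, and at 744 in 32S and 69.0 in BC, a difference of -10.35 (SE 0.21, adjusted p = 1.25e-10). IDH-III (AT4G35650), annotated as an isocitrate dehydrogenase, was at 0 in 32E and 47.5 in AC, and at 34.4 in 32S and 2.25 in BC, a difference of -9.59 (SE 0.77, adjusted p = 7.85e-07). ANN6 (AT5G10220), an annexin, was at 0.0233 in 32E and 79.3 in AC, and at 11.9 in 32S and 5.73 in BC, a difference of -7.46 (SE 0.84, adjusted p = 1.09e-05). These 4 genes were lower in the later stage of the apical lineage and higher in that of the basal lineage.

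The reverse held for the others. AT4G29020, the glycine-rich protein gene, was at 497 FPKM on average in 32E and 0 in AC, and at 0.223 in 32S and 2.76 in BC, a difference of 10.56 (SE 0.37, adjusted p = 2.3e-09). AT5G62960 was at 131 in 32E and 0 in AC, and at 12.5 in 32S and 37.3 in BC, a difference of 8.56 (SE 0.24, adjusted p = 7.12e-10). No explanation was tested for any of these.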

How the results depend on the processing

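Against 2231 higher and 2448 lower calls, a pseudocount of 5 gave 1330 higher and 1522 lower, and leaving out genes at 0 in any AC or 32E library gave 1049 higher (34.2% of the calls, against 47.7% with them). Scaling by median ratios gave 2548 higher and 2074 lower (55.1% higher) and moved the median of all genes by 0.08. Scaling every library to the same sum (TPM) moved the balance the other way, to 2118 higher and 2665 lower (44.3% higher). In none of the alternatives was a gene called in the opposite direction. Leaving out 1 library at a time gave 1848 to 2386 higher calls, 2136 to 2376 lower calls and 8484 to 9049 calls of the difference between lineages. The gained genes were 637 with limits of FPKM 1 and 0.1 and 162 with limits of 10 and 1, the lost genes were 171 and 76, and leaving out 1 library gave 279 to 407 gained and 99 to 136 lost genes. The fit treats the samples as unpaired. Same-numbered 32E and AC libraries deviated together with r of 0.04, 0.03 and -0.02, but with 3 libraries a group such values cannot show that pairing is absent. A pairing of AC with BC or of 32E with 32S was not examined. A replicate block gave 2147 higher and 2398 lower calls, and 8824 of the difference between lineages.

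Of 240 named genes that were called, the largest loss was of 37 calls with a pseudocount of 5, followed by 21 in a fit of the 6 apical libraries alone and 17 without AC replicate 3. With a pseudocount of 5 the calls of HDG1, HDG11, PIN7, ORC1A, MLS, SPL10, chr31, CER2, CESA2 and CESA6 were among those lost, with 0.1 those of ANL2, KRP7, HEMA1 and MYC2, and with median-ratio scaling those of YDA, BBM and CESA6. No named gene changed sign with a call. For the 16 counts of called list members that were 5 or more, 226 of 240 recomputed values stayed within 1.5 times. Smaller counts moved more easily, and their moves when 1 library is left out are given beside only some of the lists. The other 14 lay mainly where genes at 0 were left out, which took the higher calls to 7 of 9 genes for leaf polarity (median 2.78), 4 of 6 for inner tissues (median 1.09), 2 of 6 for meristem and region genes (median 0.52), 5 of 19 for auxin (median 0.66), 5 of 9 for cytokinin (median 1.34) and 7 of 17 for the cuticle (median 0.56). Of 390 recomputed values for the 26 such counts of transcription factor families, 43 moved further, among them the higher Dof calls, 1 without genes at 0. Without the filter on low values, medians were 1.81 for leaf polarity, 2.32 for inner tissues and 0.94 for meristem and region genes. They were 0.69 for auxin, 1.19 for cytokinin and 0.34 for the cuticle. For sugar and amino acid transport the median was then 0.02, against -1.59 with the filter. The difference between lineages cannot be had from the apical libraries alone. The reads behind a 0 are unknown, and 0 in AC is not absence.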

Other observations

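Genes were also grouped by the product text of the annotation, after their values were seen. Of 217 texts with at least 8 tested genes, 17 had at least 50% of them called in 1 direction, which is a description, since the texts were picked for it. Among the texts with lower genes, that of hypothetical proteins with the domain DUF295 had 7 lower and 1 higher of 11 (median log2 fold change -2.79), and 3 of these genes were lost by the rule above. Of the 7, AT5G55880 and AT5G55890 had identical values in all 12 libraries and are 1 measurement. One of them, AT4G25930, was at 0 in all 32E libraries and at 71.0, 98.1 and 97.5 FPKM in AC (adjusted p = 3.01e-09 by limma). Cystatin-like proteins were lower in 9 of 14, proteins with F-box and FBD domains in 14 of 22, proteins with the cysteine- and histidine-rich C1 domain in 15 of 24, and TRAF-like family proteins in 10 of 17. None of the cystatin-like, F-box or TRAF-like genes was higher. Genes of such families often stand side by side as close copies, among which reads may have been divided.

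In the other direction, leucine-rich receptor-like kinases were higher in 9 of 15 and Dof factors with that product text in 6 of 9, with none lower in either. Cupredoxins were higher in 4 of 8, with 1 lower. AT-hook proteins, which bind the minor groove of AT-rich DNA, were higher in 7 of 14, with 2 lower.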
